A study of Bos indicus x Bos taurus with 20 samples.

Results

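The genes described here are 9 genes of steroid hormone synthesis and of the ovarian cells that carry it out: SCARB1, STAR, CYP11A1, FDX1, HSD3B1, CYP19A1, HSD11B1, FSHR and OXT. They were picked by name, and all 9 were found among the 30675 named genes of a table of read counts from bovine 2-cell and 8-cell embryos. The names were drawn up with earlier results of this table known, and which of its values guided the choice is not recorded. Every comparison within the table is therefore treated as used by the choice: levels and differences of the 9 genes are given as a description, with no test and no count of calls.

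Steroid hormones are made from cholesterol, which is taken up from lipoproteins, moved into mitochondria, and there cut to pregnenolone, the parent of all other steroids. Pregnenolone is turned into progesterone, the main product of the corpus luteum, and granulosa cells of the follicle turn androgens into oestrogens. Cumulus cells, which surround the oocyte and early embryo until they are removed, are of granulosa origin.

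RNA-seq of polyA RNA was done on embryos of Bos indicus x Bos taurus, all labelled wild type, after METTL7A mRNA made in vitro or vehicle had been injected at the zygote stage. METTL7A is a membrane-bound methyltransferase of the endoplasmic reticulum and lipid droplets, and the study asked how raising it changes gene expression in early development. The 4 groups used here were vehicle-injected 2-cell embryos (Control 2-cell), METTL7A-injected 2-cell embryos, vehicle-injected 8-cell embryos (Control 8-cell) and METTL7A-injected 8-cell embryos, with 2 libraries each. No age or time after injection was given beyond the stage, controls received no other mRNA, so METTL7A and the injection of mRNA as such cannot be told apart, and how many embryos made up a library is not given in the sources used here. A second table from blastocysts was not used here. Replicates are not stated to be separate pools of embryos, so any p-value measures only the spread between these libraries, which may be technical.

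The 8 libraries held 15781017 to 20737404 counts of named genes. Levels are in CPM, the count scaled to a common library size with factors from the trimmed mean of M-values (TMM), and 1 count was worth 0.0412 to 0.0837 CPM. METTL7A stood at 7.34 to 19.1 CPM in the 4 Control libraries and at 18730 to 47690 CPM in the 4 injected ones, as labelled. The Control 8-cell pair stood apart. Its libraries differed by a chi-square of 330.1 per degree of freedom, against 2.48 to 56.9 within the other pairs, so values without its replicate 1 are given beside the differences of the 9 genes that rest on it. Oocyte and embryo markers, such as GDF9 and ZP3, were present at 1 CPM or more for 13 of 13 genes in every library.

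The 9 genes followed 2 patterns. SCARB1, CYP11A1, HSD3B1, HSD11B1, FSHR and OXT were each higher in both Control 8-cell libraries than in the other 6 libraries, although FSHR reached only 0.645 CPM in the second of them. STAR, FDX1 and CYP19A1 were higher at the 2-cell than at the 8-cell stage in both treatments. This grouping was made after the values were seen.

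**Figure D1:**
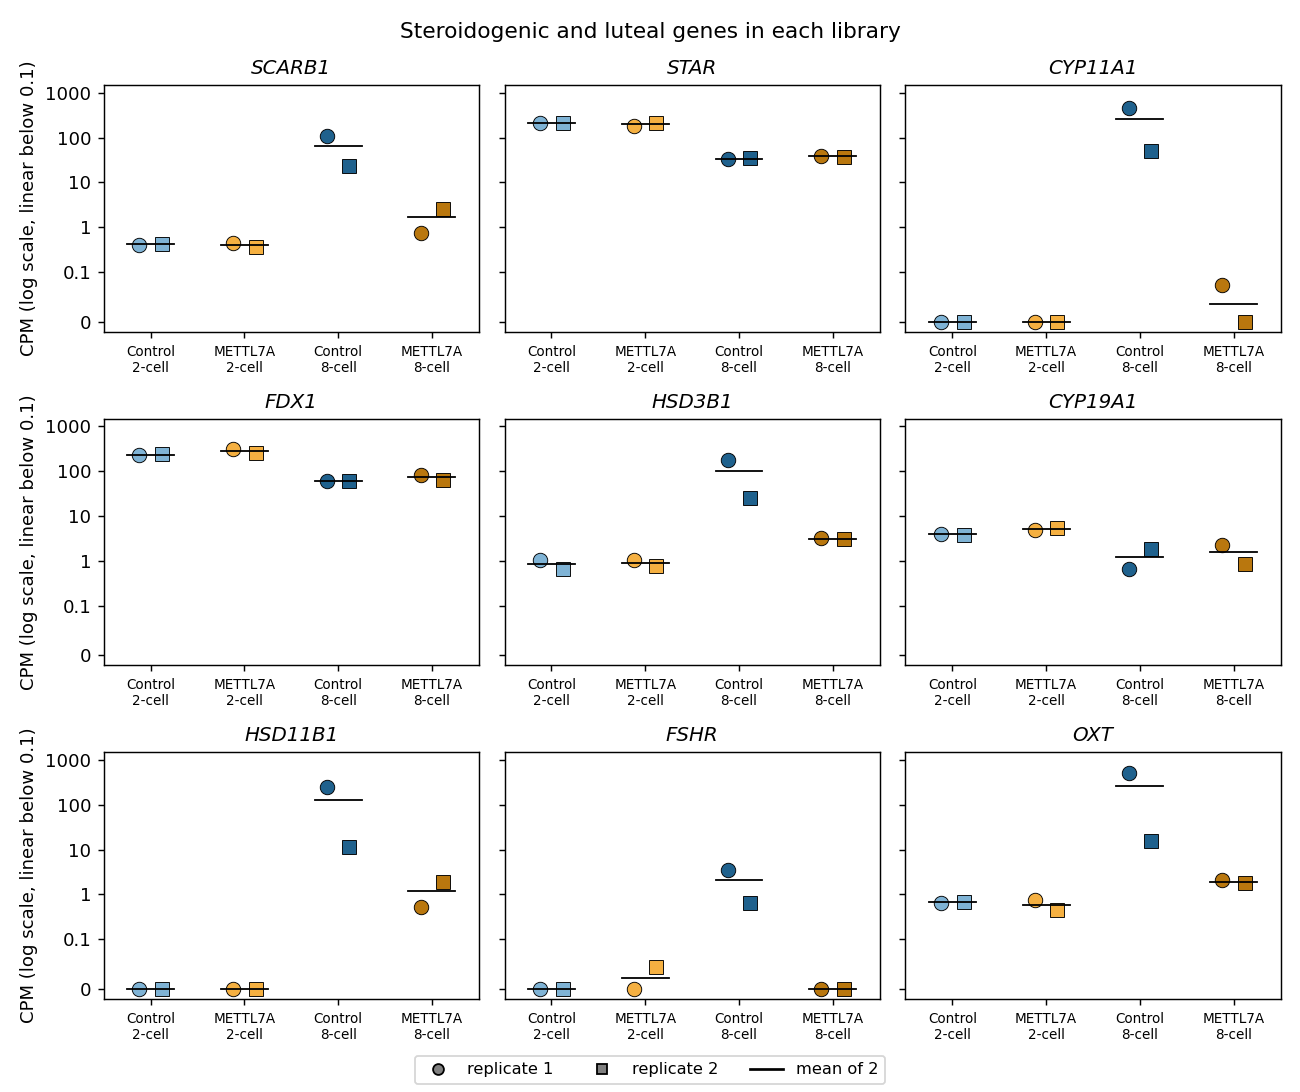
CPM of each of the 9 genes in each library (log scale, linear below 0.1 CPM), with replicate 1 as a circle, replicate 2 as a square and the mean of the 2 as a bar. SCARB1, CYP11A1, HSD3B1, HSD11B1, FSHR and OXT were highest in both Control 8-cell libraries, whereas STAR, FDX1 and CYP19A1 were highest at the 2-cell stage.

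SCARB1 encodes a receptor for high-density lipoprotein that brings cholesterol esters into the cell. It stood at 109 and 23.0 CPM in Control 8-cell replicates 1 and 2, and at 0.738 and 2.59 CPM in the METTL7A-injected 8-cell libraries. At the 2-cell stage it stood at 0.412 and 0.433 CPM in Control and at 0.455 and 0.354 CPM after METTL7A. Both Control 8-cell libraries thus lay above the other 6, the injected 8-cell libraries lay above the 2-cell libraries, and the 2-cell groups overlapped. Between stages after METTL7A the log2 difference was 2.02 (SE 0.879). The fitted log2 difference was 7.27 (SE 0.946) between Control 8-cell and Control 2-cell embryos, and -5.32 (SE 0.857) between METTL7A-injected and Control 8-cell embryos. Without Control 8-cell replicate 1 these were 5.73 (SE 0.635) and -3.80 (SE 0.588).

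STAR encodes the protein that moves cholesterol to the inner mitochondrial membrane, the step that limits the rate of steroid synthesis. Its levels were 214 and 216 CPM in Control 2-cell, and 186 and 216 CPM in METTL7A-injected 2-cell libraries. In 8-cell embryos they were 33.1 and 34.8 CPM in Control and 38.0 and 37.9 CPM after METTL7A. All 4 2-cell libraries lay above all 4 8-cell libraries. The log2 difference of 8-cell against 2-cell embryos was -2.66 (SE 0.266) in Control, or -2.64 (SE 0.249) without replicate 1 of its 8-cell pair, and -2.40 (SE 0.264) after METTL7A. Control and injected libraries overlapped in 2-cell embryos. In 8-cell embryos they did not, with a log2 difference of 0.16 (SE 0.252), or 0.12 (SE 0.222) without Control replicate 1, and the order turned when counts were scaled by plain library totals, at 29.97 CPM after METTL7A against 33.6 CPM in Control.

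CYP11A1, the side-chain cleavage enzyme that cuts cholesterol to pregnenolone, had 0 counts in all 4 2-cell libraries. In Control 8-cell embryos it had 8256 and 844 counts, or 463 and 49.5 CPM. The METTL7A-injected 8-cell libraries had 1 and 0 counts, or 0.0738 and 0 CPM. Transcripts of this enzyme were therefore seen in quantity in the 2 Control 8-cell libraries and hardly elsewhere. Taking 3 counts over a group as the floor of detection, the level in Control 8-cell embryos was at least 4117-fold higher than in Control 2-cell embryos, and at least 782-fold higher from replicate 2 alone. Against METTL7A-injected 8-cell embryos the ratio of counts was 6649 with an exact 95% counting interval of 1193 to 262700, or 1262 (226 to 49910) from replicate 2 alone.

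FDX1 encodes ferredoxin, which passes electrons to CYP11A1 and other mitochondrial P450 enzymes, and is not limited to steroid-making cells. It stood at 233 and 239 CPM in Control 2-cell libraries, and at 310 and 253 CPM in those given METTL7A. At the 8-cell stage it stood at 60.0 and 60.1 CPM in Control and at 82.1 and 64.0 CPM after METTL7A. The gene thus was well detected in all libraries and higher at the 2-cell stage, and its partner CYP11A1 did not share this pattern. The log2 difference between stages was -1.97 (SE 0.276) in Control, or -1.99 (SE 0.270) without 8-cell replicate 1, and -1.95 (SE 0.276) after METTL7A. Between treatments it was 0.25 (SE 0.266) in 2-cell and 0.28 (SE 0.268) in 8-cell embryos, the latter also 0.28 (SE 0.249) without Control replicate 1. The groups did not overlap at either stage, but with plain library totals the 8-cell means turned, at 58.3 CPM after METTL7A against 59.4 CPM in Control.

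HSD3B1 turns pregnenolone into progesterone. It stood at 175 and 25.4 CPM in Control 8-cell libraries, and at 3.25 and 3.01 CPM in METTL7A-injected 8-cell libraries. In 2-cell libraries it stood at 1.07 and 0.649 CPM in Control and 1.02 and 0.752 CPM after METTL7A. The 3 levels did not overlap: Control 8-cell was highest, METTL7A-injected 8-cell came next, and the 2-cell groups were lowest and overlapped. The log2 difference was 6.85 (SE 0.919) between stages in Control, 1.82 (SE 0.813) between stages after METTL7A, and -5.00 (SE 0.838) between treatments at the 8-cell stage. Without Control 8-cell replicate 1 the first was 4.85 (SE 0.439) and the last -3.02 (SE 0.414). The gene belongs to a family of near-identical copies, so how reads were shared among them is uncertain.

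CYP19A1 encodes aromatase, which makes oestrogens from androgens and marks granulosa cells of growing follicles. Its levels were low throughout, at 4.04 and 3.85 CPM in Control 2-cell libraries, and 4.83 and 5.35 CPM in METTL7A-injected 2-cell libraries. In 8-cell embryos they were 0.672 and 1.82 CPM in Control and 2.29 and 0.837 CPM after METTL7A. The 2-cell libraries all lay above the 8-cell libraries, and the 8-cell treatments overlapped. Between stages the log2 difference was -1.66 (SE 0.672) in Control, or -1.13 (SE 0.591) without 8-cell replicate 1, and -1.69 (SE 0.674) after METTL7A. In Control 8-cell embryos aromatase was lower in replicate 1 than in replicate 2, the reverse of CYP11A1.

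HSD11B1, a reductase of the endoplasmic reticulum that regenerates active cortisol from cortisone, also had 0 counts in the 4 2-cell libraries. Control 8-cell libraries had 4424 and 197 counts, or 248 and 11.6 CPM. Injected 8-cell libraries had 7 and 23 counts, or 0.517 and 1.93 CPM. Each 8-cell library thus held some HSD11B1, and no 2-cell library did. The level was at least 2091-fold higher in Control 8-cell than in Control 2-cell embryos, or at least 182-fold from replicate 2 alone. In METTL7A-injected embryos it was at least 15.8-fold higher at the 8-cell than at the 2-cell stage. The log2 difference between treatments at the 8-cell stage was -6.75 (SE 1.496), or -3.26 (SE 0.745) without Control replicate 1.

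FSHR encodes the receptor for follicle-stimulating hormone, the signal that drives granulosa cells to grow and to make aromatase. It was the rarest of the 9 in counts, with 62 and 11 counts in Control 8-cell libraries, or 3.47 and 0.645 CPM. Among the other 6 libraries it had 1 count, in METTL7A 2-cell replicate 2, and 0 counts elsewhere. Its level in Control 8-cell embryos was at least 33.0-fold higher than in Control 2-cell and at least 17.8-fold higher than in METTL7A-injected 8-cell embryos. From Control replicate 2 alone these bounds were 10.2-fold and 5.48-fold. FSHR and CYP19A1, both granulosa genes, were thus highest at different stages.

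OXT encodes oxytocin, a peptide hormone of the hypothalamus that the bovine corpus luteum also makes. It stood at 523 and 15.3 CPM in Control 8-cell libraries, and at 2.07 and 1.76 CPM in METTL7A-injected 8-cell libraries. At the 2-cell stage it stood at 0.660 and 0.692 CPM in Control and at 0.739 and 0.442 CPM after METTL7A. Control 8-cell libraries lay above METTL7A-injected 8-cell libraries, which lay above the 2-cell libraries. The log2 difference was 8.63 (SE 1.49) between stages in Control, or 4.47 (SE 0.472) without 8-cell replicate 1, and 1.71 (SE 1.36) after METTL7A. Replicate 1 thus carried much of the Control value, which from replicate 2 alone was a 22.7-fold ratio. Between treatments at the 8-cell stage it was -7.13 (SE 1.39), or -3.00 (SE 0.454) without Control replicate 1.

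**Figure D2:**
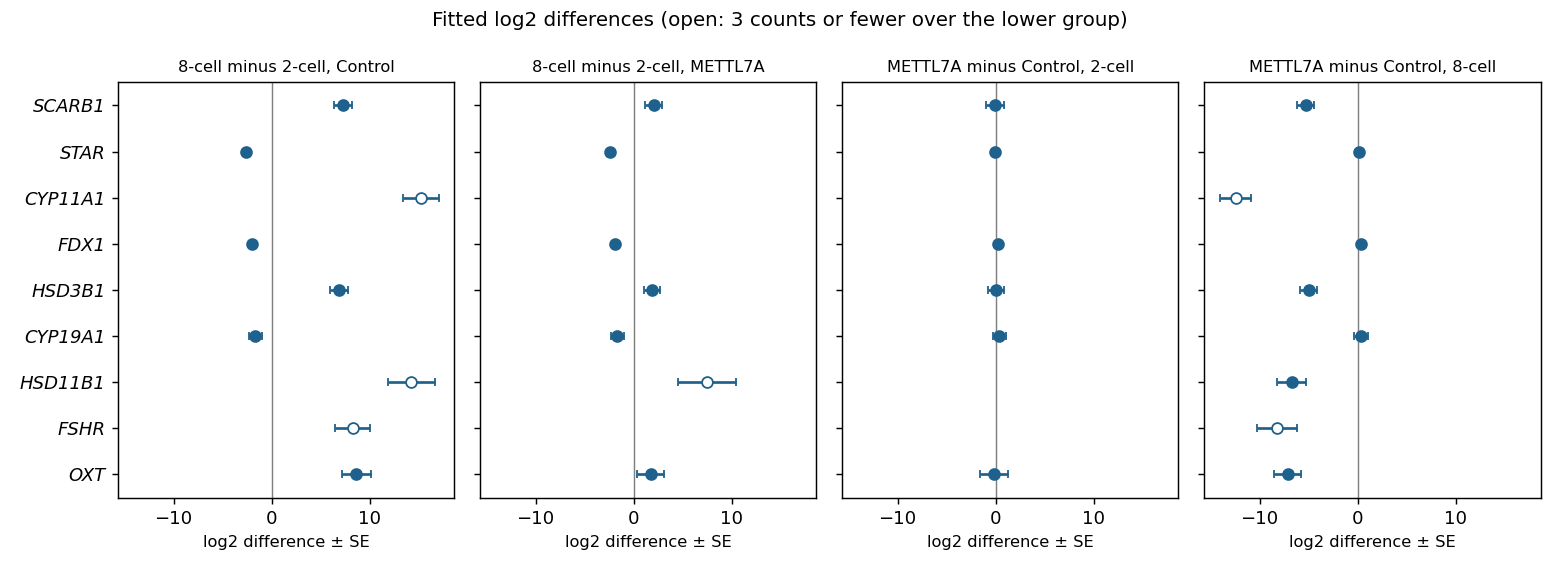
Fitted log2 differences with standard errors for the 9 genes in 4 comparisons. Open points have 3 counts or fewer over the lower group, where the fitted value depends on the prior count and is no bound, and genes at or under 3 counts in both groups are left out. STAR (-2.66 and -2.40) and FDX1 (-1.97 and -1.95) lay below 0 in both stage comparisons, and most of the other differences lay in the 2 comparisons that use Control 8-cell embryos.

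Across the 9 genes the 2 comparisons that share the Control 8-cell libraries held most of the differences. Between METTL7A-injected and Control 8-cell embryos 6 genes were lower without overlap of the libraries, STAR and FDX1 were higher without overlap, and CYP19A1 overlapped. Over all 16149 genes tested, 22.4% were lower and 28.1% higher without overlap. Since these values may have guided the choice of the genes, nothing is read from the counts.

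Between Control 8-cell and Control 2-cell embryos no gene overlapped, with 6 higher and 3 lower, where 40.8% of all genes were higher and 38.2% lower without overlap. Between the stages in METTL7A-injected embryos 4 genes were higher and 3 lower without overlap, where 38.5% and 37.1% of all genes were. Between treatments at the 2-cell stage CYP19A1 and FDX1 were higher without overlap and 0 were lower, where 26.9% and 30.5% of all genes were. All 9 passed the filter on low counts, but CYP11A1, HSD11B1 and FSHR did so only through the Control 8-cell libraries.

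Summed, SCARB1, CYP11A1, HSD3B1, HSD11B1, FSHR and OXT took 0.148% of the named-gene counts in the first Control 8-cell library, with an exact 95% interval of 0.146 to 0.1495. In the second they took 0.0126%, with an interval of 0.0121 to 0.01318. In METTL7A-injected 8-cell libraries they took 0.00057% and 0.000669%, and in 2-cell libraries 0.000174% to 0.000251%. The sum of STAR, FDX1 and CYP19A1 behaved otherwise, at 0.0518% to 0.055% in 2-cell and 0.0074% to 0.0105% in 8-cell libraries. These intervals cover counting error only.

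The genes also differed in how far the Control 8-cell libraries stood apart. Replicate 1 exceeded replicate 2 by a ratio of 34.2 for OXT, which was above that of 99.8% of all genes tested. For HSD11B1 the ratio was 21.5 and for CYP11A1 9.35. It was 6.88 for HSD3B1, 5.39 for FSHR and 4.76 for SCARB1, the last above 91.6% of all genes. The 6 genes of the Control 8-cell pattern thus did not keep a fixed ratio to each other between the 2 libraries. STAR (0.951) and FDX1 (0.998) lay near the median of all genes, 0.956, and CYP19A1 at 0.370.

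**Figure D3:**
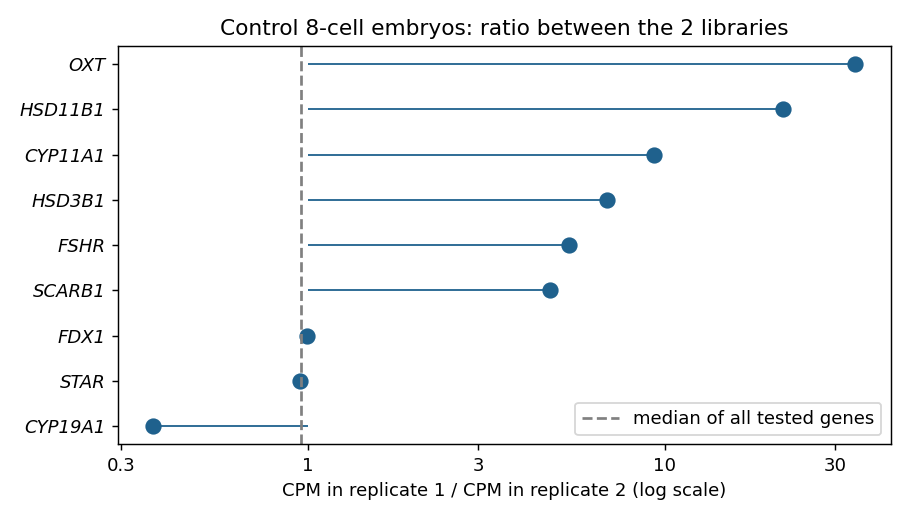
Ratio of the CPM in replicate 1 to that in replicate 2 of Control 8-cell embryos (log scale), with the median of all tested genes as a dashed line. Ratios ran from 0.370 for CYP19A1 to 34.2 for OXT.

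Genes of like profile were sought by the root-mean-square difference of mean-centred log2 CPM over the 8 libraries, among 13797 other genes with a symbol. The 8 libraries fall into 4 groups of 2, and libraries of a group are not independent points. For CYP11A1 the nearest were IFITM3 (0.305), LTC4S (0.329) and OAS1Y (0.428), and for HSD3B1 FXYD5 (0.326), PGK1 (0.356) and GALM (0.371). For SCARB1 they were BEX2 (0.301), COL5A2 (0.302) and NECTIN2 (0.336), and for HSD11B1 CTSK (0.563), KRT8 (0.593) and TSPAN6 (0.672). OXT lay nearest to SERPINB2 (0.551), GPX1 (0.574) and RETREG1 (0.576), and FSHR to CLCA3 (0.160), ST3GAL1 (0.191) and ARMCX1 (0.202), which had 0 counts outside the Control 8-cell libraries. None of the 9 genes was among the 3 nearest of another.

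STAR lay nearest to HEY2 (0.098), CEP78 (0.112) and SS18 (0.140), and FDX1 to EXOC3L1 (0.142), NSMCE3 (0.149) and CLCN4 (0.151). MCTP1 (0.144) and KCNS3 (0.198) were among the 3 nearest to CYP19A1. The distance between STAR and FDX1 was 0.348, and between STAR and CYP11A1, which act one after the other on cholesterol, it was 5.44. HSD3B1 and SCARB1 were 0.559 apart.

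Other genes of the pathway were taken from 5 lists, for steroid enzymes, cholesterol delivery, transcription factors, hormone receptors, and secreted or marker genes of granulosa and luteal cells. These lists held 127 names, among them 3 spellings of CYP21, and none of the 9 genes. Of these, 122 were in the table and 91 were tested with edgeR's quasi-likelihood test, with Benjamini-Hochberg adjustment over all 16149 genes. The lists too were chosen with earlier results of these data known, so the shares of their genes that passed are a description.

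Between METTL7A-injected and Control 8-cell embryos 16 of the 91 genes were lower, 0 were higher and 75 did not pass. That is 17.6% lower, where 4.55% of all genes were lower and 0.737% higher. The median log2 difference was -0.56, against 0.14 over all genes. Granulosa and luteal genes had the most, with 8 of 16 lower, followed by cholesterol delivery with 4 of 20 and steroid enzymes with 4 of 22. Of the 21 transcription factors and 12 receptors tested, 0 passed with edgeR. At an unadjusted p under 0.05 there were 6 and 3, and DESeq2 called 3 lower among the former, and 1 higher and 2 lower among the latter.

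TIMP1, an inhibitor of matrix metalloproteinases, fell from 1066 and 197 CPM in Control to 0.369 and 0.670 CPM (log2 difference -10.25, SE 1.02). IGFBP5, which binds insulin-like growth factors, fell from 380 and 94.1 to 2.14 and 2.93 CPM (-6.55, SE 0.711, adjusted p = 0.0072). INHBB, the inhibin beta B subunit, fell from 10.7 and 2.23 CPM to 0.148 and 0 CPM. With 229 against 2 counts, its ratio was 83.7 with an exact 95% counting interval of 22.9 to 695. These 3 genes and FST, the activin-binding protein follistatin, were lower in both injected libraries than in both Control libraries. FST fell from 112 and 13.8 CPM to 0.148 and 1.67 CPM (-6.13, SE 1.17). RGN, KRT8, MFGE8 and SERPINE2 were the other genes of that list to fall.

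Among genes of cholesterol delivery, TSPO, a protein of the outer mitochondrial membrane, fell from 205 and 23.9 CPM to 1.11 and 2.09 CPM (-6.16, SE 0.968, adjusted p = 0.0194). STARD3 and NPC2, which act in the transport of cholesterol at endosomes, fell as well. Among enzymes CYP27A1, a mitochondrial sterol hydroxylase, fell from 10.1 and 1.53 CPM to 0 and 0.167 CPM (adjusted p = 0.0458). With 207 against 2 counts, its ratio was 75.6 with a counting interval of 20.7 to 629. PAPSS2, HSD17B7 and FDXR, the reductase that supplies FDX1 with electrons, were the other 3. The count of 16 rests on single libraries. It was 7 without Control replicate 1, 56 without Control replicate 2, and 0 without either METTL7A-injected library, and INHBB and CYP27A1 lost their calls without Control replicate 1 (adjusted p = 0.127 and 0.201). Without that library the log2 difference was -8.575 for TIMP1, -5.22 for IGFBP5, -3.955 for FST and -3.91 for TSPO.

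**Figure D4:**
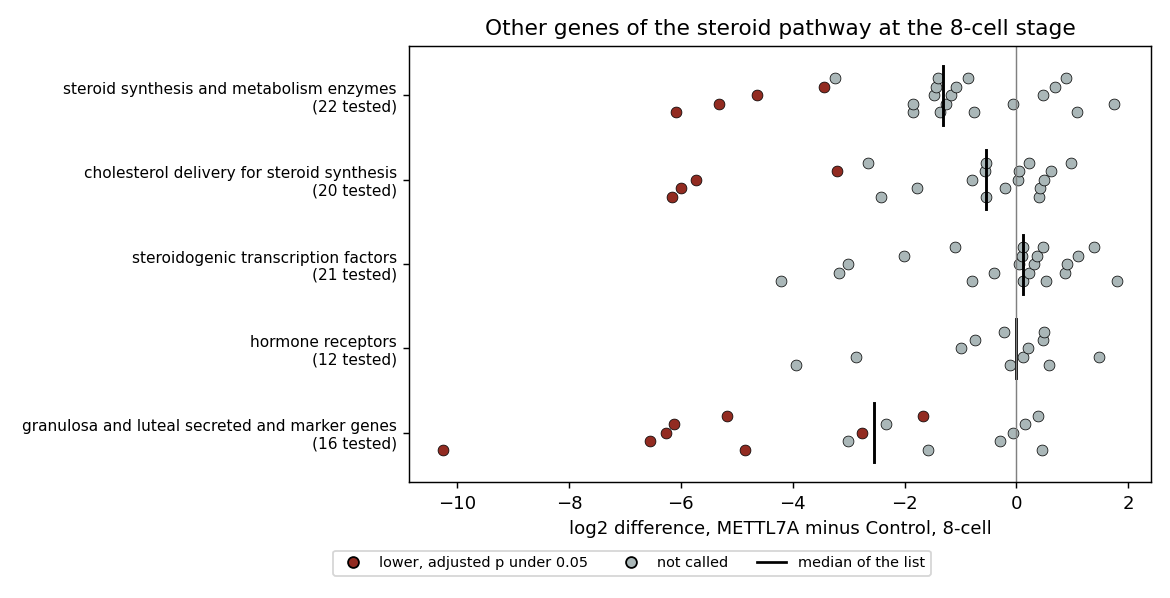
Log2 difference between METTL7A-injected and Control 8-cell embryos for 91 other genes of the steroid pathway, by list, with genes lower at an adjusted p under 0.05 in red and the median of each list as a bar. The 16 red points lie in the enzyme, cholesterol delivery and granulosa and luteal lists.

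At the 2-cell stage 0 of the 91 genes passed between the treatments with edgeR, beside 0.0124% of all genes. At an unadjusted p under 0.05 there were 11, where 7.41% of all genes were, and DESeq2 called 3, all lower. In the test of whether the METTL7A effect differed between the stages, 0 of the 91 passed with edgeR and 35 had an unadjusted p under 0.05, where 0.0124% and 16% of all genes did. DESeq2 called 19 of them for that difference, 3 positive and 16 negative.

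From the 2-cell to the 8-cell stage in Control embryos 37 of the 91 genes rose, 19 fell and 35 did not pass, or 40.7% and 20.9%, where 29.9% and 22.8% of all genes did. The median log2 difference was 0.88, against 0.18 over all genes. Of 16 granulosa and luteal genes 12 rose and 2 fell, and of 22 steroid enzymes 10 rose and 2 fell. TIMP1 rose by 12.21 on the log2 scale, the keratin KRT8 by 9.72 and FST by 9.43. KRT18, the partner keratin of KRT8, had 1 count at the 2-cell stage and a ratio of 782 (exact 95% counting interval 140 to 30930). The transcription factor GATA6 rose 254-fold (86.6 to 1237) from 3 counts, and STARD5, a sterol-binding relative of STAR, 212-fold (58.3 to 1762) from 2 counts. Adjusted p-values of KRT8, KRT18, GATA6 and STARD5 ran from 0.000402 to 0.00228. TIMP1 and FST passed the filter only through the Control 8-cell libraries, so theirs are not given. Each of the 6 genes also rose without Control replicate 1, by 10.52 for TIMP1, 6.77 for KRT8 and 7.23 for FST on the log2 scale. Without that library 29 of the pathway genes rose and 22 fell.

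Genes of several lists fell over the same interval. LIPE, the hormone-sensitive lipase that frees stored cholesterol esters, fell by 3.85 on the log2 scale, IGFBP3 by 3.05, the nuclear receptor NR4A1 by 2.96, AKAP1, which holds protein kinase A at mitochondria, by 2.69, NR1H2, a sterol sensor, by 2.47 and NR3C2, the mineralocorticoid receptor, by 2.32 (adjusted p = 0.000285 to 0.00298).

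In METTL7A-injected embryos 17 of the 91 genes rose from the 2-cell to the 8-cell stage, 18 fell and 56 did not pass, or 18.7% and 19.8%, where 23.1% and 17.1% of all genes did. The median was -0.03, against 0.04 over all genes. PGR, the progesterone receptor, KRT18 and SULT2A1, a sulfotransferase of steroids, had 0 counts in the injected 2-cell libraries. Taking 3 counts over that group as the floor, they were at least 126-fold, 70.4-fold and 18.4-fold higher in injected 8-cell embryos. GATA6 rose 147-fold (exact 95% counting interval 40.2 to 1226) from 2 counts, SRD5A1, a steroid reductase, 88.3-fold (15.2 to 3548) from 1 count, and STARD5 by 5.68 on the log2 scale. Adjusted p-values of these 6 ran from 0.000186 to 0.0471, the highest for SULT2A1, which stood at 0.369 and 2.51 CPM. STARD3 had 24 counts in injected 2-cell and 1 in injected 8-cell embryos, a ratio of 15.2 (counting interval 2.48 to 626). The other genes named for their falls were IGFBP3 (log2 difference -3.15), HSD11B2 (-2.345), the enzyme that inactivates cortisol, LIPE (-2.33) and POR (-2.30), which passes electrons to P450 enzymes of the endoplasmic reticulum (adjusted p = 0.000257 to 0.0312, STARD3 included). The comparison in Control and that in injected embryos were not set against each other gene by gene beyond the test of the METTL7A effect above.

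Of the marker lists for other cell types, the stromal list had its highest sums in both Control 8-cell libraries, where the 6 genes above were also highest. The 9 stromal markers summed to 5221 and 1000 CPM in Control 8-cell replicates 1 and 2, with 9 and 7 of them at 1 CPM or more. They summed to 61.5 and 68.8 CPM in METTL7A-injected 8-cell libraries, with 6 and 7 at 1 CPM or more, and to 5.52 to 9.44 CPM at the 2-cell stage. LUM, the matrix proteoglycan lumican, made up 4773 and 667 CPM of the Control 8-cell sums. In replicate 2, PDGFRB stood at 0.0586 CPM, lower than in every other library. COL1A1 (5.45 CPM) and THY1 (0.645 CPM) lay there below the higher injected 8-cell library, at 10.6 and 1.09 CPM. The other stromal markers were higher in both Control 8-cell libraries than elsewhere. The 13 cumulus and granulosa markers summed to 951 and 333 CPM in Control 8-cell, 248 and 222 CPM in injected 8-cell, and 345 to 452 CPM in 2-cell libraries, with 8 to 11 of 13 at 1 CPM or more. This sum was thus raised in Control 8-cell replicate 1 but not in replicate 2, which lay below the 2-cell libraries. Its genes differed among themselves. FOXL2, INHA, PTX3, NR5A2 and GATM were higher in both Control 8-cell libraries than in every 2-cell and injected 8-cell library. HAS2, PTGS2 and GREM1 were lower in both than in every 2-cell library, and in replicate 2 the other markers of the list were neither. INHA stood at 10.5 and 0.235 CPM in Control 8-cell libraries and at 0 in both injected ones. HAS2, a hyaluronan synthase of expanding cumulus, stood at 27.9 and 73.95 CPM in Control 8-cell, 76.9 and 57.3 CPM in injected 8-cell and 139 to 163 CPM in 2-cell libraries. These genes were chosen after their values were seen. The part of other cells in the results above was not tested, and in libraries of whole embryos a different number of cells of a type and a different amount of RNA per cell cannot be told apart.

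Theca markers were mixed. INSL3 stood at 30.7 and 0.586 CPM in Control 8-cell libraries, and made up most of the theca sum in replicate 1. CYP17A1 had 0 CPM in 7 libraries and 0.117 CPM in Control 8-cell replicate 2, and LHCGR, the receptor for luteinising hormone, 0 CPM in 7 libraries and 0.056 CPM in Control 8-cell replicate 1. The 5 theca markers summed to 35.5 and 4.99 CPM in Control 8-cell, 5.09 and 6.11 CPM in injected 8-cell and 11.2 to 18.9 CPM in 2-cell libraries. Oviduct epithelium markers summed to 30.5 to 115 CPM, and endothelial and blood markers to 49.0 to 135 CPM over the 8 libraries. The former were lowest in the Control 8-cell pair, and the latter were highest in Control 8-cell replicate 2, with 54.2 CPM in replicate 1. Most of the oviduct sum was EPCAM except in Control 8-cell replicate 1, where PAX8 was slightly higher. EPCAM stood at 14.9 to 34.1 CPM in Control 8-cell and 52.6 to 110.9 CPM in the other libraries. PAX8 of that list went the other way, at 2.29 to 15.2 CPM in Control 8-cell and 0.866 CPM or less elsewhere. OVGP1, FOXJ1 and KRT7 stood at 2.68 CPM or less throughout. Oocyte and embryo markers were lowest in Control 8-cell replicate 1, at 15470 CPM against 20750 to 46400 CPM elsewhere.

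**Figure D5:**
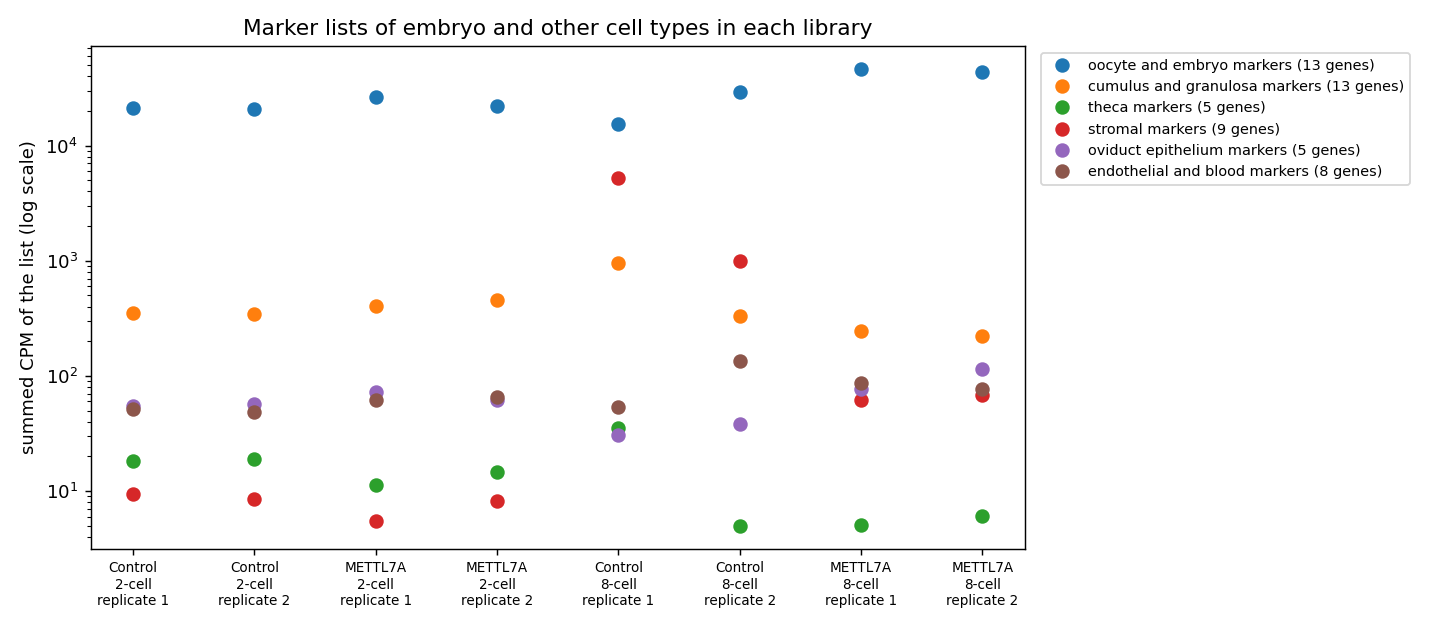
Summed CPM (log scale) of 6 marker lists in each library. The stromal sum reached 5221 CPM in Control 8-cell replicate 1 and 1000 CPM in replicate 2, against 68.8 CPM or less in the other 6 libraries.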

How the data were processed

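The table that the authors deposited holds raw counts of reads for each gene. Columns were tied to samples through their names, and 0 were left without a sample. Per the submitters' processing notes, Trim Galore 0.6.10, FastQC, STAR 2.7.11b, Subread 2.0.6 and DESeq2 1.44.0 were used. No coordinates are printed, since the build is not given in the sources used here. Per the labels' protocols, embryos went straight into SMART-Seq v4 cDNA synthesis and Nextera XT preparation, which does not mark the strand, so overlapping antisense genes cannot be told apart. An entry that names no gene, with 0.184% to 0.95% of a library's counts, entered neither library sizes nor tests.

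All 8 libraries of the 2-cell and 8-cell table were fitted together in R 4.3.3 with edgeR 4.0.16 (TMM factors, filterByExpr with a minimum count of 10 and total of 15, robust quasi-likelihood test, 1 coefficient per group). The threshold was a Benjamini-Hochberg adjusted p of 0.05 over 16149 genes, 2-sided. The script was tested on simulated data. The standard error is the log2 difference divided by the root of the F value. Folds against a group with 0 counts are bounds at 3 counts over that group, and 1 to 3 counts give a ratio with an exact 95% interval. CPM uses all named-gene counts times the TMM factor. Alternatives were RLE factors, DESeq2 1.42.0, no filter, only the compared groups, a replicate block and leaving out each library. Of the lists, the called genes of largest difference, at most 6 per direction and comparison, and the 3 nearest profiles per gene (prior count 2) are named with values; other genes were chosen after their values were seen. A few genes that this rule names are not reported here. The 9 genes, the lists and the tests were chosen with earlier results of these data known.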

Additional observations from a re-analysis of the deposited data

How the results depend on the processing

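Counts of called genes depended on the settings. Between treatments at the 8-cell stage, 854 genes and 16 pathway genes were called. DESeq2 called 2374 and 31, no low-count filter 2767 and 33, and a fit of the 8-cell groups alone 283 and 5. Leaving out 1 library gave 2 to 7129 genes and 0 to 56 pathway genes, the lowest without METTL7A 8-cell replicate 1 or 2 and the highest without Control 8-cell replicate 2. Between treatments at the 2-cell stage 2 and 0 were called. DESeq2 called 158 and 3, no filter 100 and 2, and the 2-cell groups alone 1005 and 8, and leaving out 1 library gave 2 and 0 each time. Between stages in Control, 8516 and 56 were called, and 5127 to 10759 and 33 to 73 without 1 library. After METTL7A 6496 and 35 were called, and 3276 to 4560 and 15 to 24 without 1 library. For the difference of the METTL7A effect, 2 and 0 became 917 and 19 with DESeq2, 1354 and 25 with no filter, 1 gene with RLE factors, and 0 to 4568 and 0 to 42 without 1 library. The causes were not tested.

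With a replicate block that difference gave 24 genes and 0 pathway genes. The block gave 1083 and 18 at the 8-cell stage, 2 and 0 at the 2-cell stage, 8296 and 53 between stages in Control and 6462 and 34 after METTL7A. Deviations of same-numbered libraries correlated between -0.0265 and 0.0549 over genes, 3 of 6 group pairs above 0. A correlation over all genes cannot show whether same-numbered libraries shared a batch that moved some genes, which was not tested.

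Without Control 8-cell replicate 1 the CYP19A1 difference between treatments at that stage was -0.21, against 0.34 with it, and FSHR was filtered out. RLE factors moved the Control stage comparison by 0.11 and plain totals moved comparisons by -0.10 to -0.48 on the log2 scale. Depth limits FSHR, and HSD11B1 and CYP11A1 outside Control 8-cell embryos.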

Other observations

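Some list genes were too low for the test, and INSL3 was on a marker list only. Those named here were chosen after their values were seen. INSL3, a peptide hormone of theca and Leydig cells, stood at 30.7 and 0.586 CPM in Control 8-cell replicates 1 and 2, at 0.221 and 0.0837 CPM in METTL7A-injected 8-cell libraries, and at 0 in the 2-cell libraries. It is on the theca list, whose enzyme CYP17A1 stood at 0 and 0.117 CPM in the same Control libraries. INHA, the inhibin alpha subunit of granulosa cells, stood at 10.5 and 0.235 CPM in Control 8-cell and at 0 CPM in injected 8-cell libraries. FOXL2, a granulosa transcription factor, stood at 2.69 and 0.528 CPM in Control 8-cell and at 0.216 CPM or less elsewhere. HSD17B1, which makes oestradiol, stood at 2.41 and 0.528 CPM in Control 8-cell and at 0.284 CPM or less elsewhere. AVP, which encodes the related hormone vasopressin, stood at 0.112 and 0.0586 CPM in the Control 8-cell libraries where OXT stood at 523 and 15.3 CPM.

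Also chosen after their values were seen are NR5A1, NR5A2 and PTGFR. NR5A1 (SF-1), a main activator of steroidogenic genes, was measured at 2.02 and 0.528 CPM in Control 8-cell, 0.295 and 0 CPM in injected 8-cell, and 0.310 to 1.64 CPM in 2-cell libraries. Its relative NR5A2 stood at 40.6 and 11.1 CPM in Control 8-cell, 7.75 and 5.02 CPM in injected 8-cell, and 1.69 to 4.83 CPM in 2-cell libraries. PTGFR, the receptor for the prostaglandin that ends the life of the corpus luteum, went another way, at 14.4 and 17.3 CPM in Control 8-cell, 38.3 and 49.5 CPM in injected 8-cell and 1.21 to 2.39 CPM in 2-cell libraries.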
